A study of Caenorhabditis elegans with 30 samples.

Results

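The sphingolipid genes followed here across the series were 9 of the 46934 genes in the count table: the acid sphingomyelinases *asm-1*, *asm-2* and *asm-3*, the serine palmitoyltransferase subunit gene *sptl-1*, the ceramide synthases *hyl-1*, *hyl-2* and *lagr-1*, the glucosylceramide synthase *cgt-3* and the sphingomyelin synthase *sms-1*. They were chosen by name and enzyme family, and *asm-3* was included because it was among the genes that stood lowest in both mutants at day 1. Its day 1 values are therefore a description and carry no test.

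RNA was measured by 3′ mRNA sequencing (QuantSeq, a method that counts transcripts by their poly(A)-side ends) in *C. elegans* that lack a germline. Every worm, controls included, carried *glp-1(e2141)*, a temperature-sensitive allele of the Notch receptor gene that blocks germline proliferation at the growth temperature used. Controls carried this allele alone, *set-26(-)* mutants also carried *set-26(tm2467)* (strain IU714), and *hcf-1(-)* mutants also carried *hcf-1(pk924)* (strain IU701). SET-26 is a chromatin factor that binds a mark of active promoters, and HCF-1 is a conserved cofactor that acts with chromatin-modifying complexes. Worms were raised on L4440 bacteria, the empty vector (E.V.) control for RNA interference, and were divided at day 1 of adulthood between E.V. bacteria and bacteria for RNAi of *hda-1*, which encodes a histone deacetylase. The 15 groups were the 3 genotypes at day 1 on E.V., at day 3 on each diet and at day 12 on each diet, with 2 replicates per group and 30 libraries in all. Whole worms were extracted, so fewer cells of a type and less RNA per cell cannot be told apart.

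Sphingolipids are membrane lipids built on a long-chain base. Serine palmitoyltransferase makes the base, ceramide synthases join a fatty acid to it to give ceramide, and head groups are then added to give sphingomyelin or glucosylceramide. Sphingomyelinases return sphingomyelin to ceramide, and ceramidases and glucosylceramidases carry breakdown further, largely in lysosomes. In *C. elegans* the base is branched at its end and is made from branched-chain fatty acids. Loss of *asm-3* is known to lengthen worm lifespan through reduced insulin-like signalling, and glucosylceramide made in the intestine is needed for larval development.

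Each library held between 6045498 and 17748121 counted reads (median 8323966), and the scaling factors (trimmed mean of M-values, TMM) lay between 0.639 and 1.34. Reads of *hcf-1* were lower in *hcf-1(-)* mutants than in controls in all 5 comparisons of a day and diet (log2 fold change −2.64 to −2.16). Reads of *set-26* were not lower in *set-26(-)* mutants (log2 fold change 0.00 to 0.81), and 3′ reads need not show an internal deletion. In libraries labelled *hda-1* RNAi, *hda-1* had 1917 to 17308 reads, against 106 to 637 in libraries on E.V., so these counts cannot serve as a check of depletion, which the study assessed by assays not used here, and these groups are named by their labels. The summed level of 10 germline genes was 16.3 to 63.8 CPM, the reads divided by library size after TMM scaling over all 30 libraries. Replicate 1 of the day 1 controls and replicate 2 of the day 12 controls on E.V. stood apart from their partners for several genes below, and for those genes values without either library of the pair are given where they change a call.

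Of the 9 genes, *asm-3* had the widest range of group means. *asm-3* (WBGene00000213) lies on the minus strand of chromosome IV at chrIV:520214-523809 in WBcel235. At day 1 it had 149 and 171 reads in the controls, 1 and 12 in *set-26(-)* mutants and 5 and 5 in *hcf-1(-)* mutants. Both control libraries stood above every mutant library. On the log2 scale the fitted differences were −4.82 for *set-26(-)* and −5.48 for *hcf-1(-)*, 28.2-fold and 44.7-fold lower. Among 1752 genes that were lower in both mutants with an average of 50 reads or more and no overlap between controls and mutants, *asm-3* ranked 5 by the smaller of its 2 differences, after *elo-5*, C51E3.10, Y48E1B.8 and C32H11.4. For C32H11.4, the gene just ahead of it, that difference was −5.03. These are the values that chose the gene.

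The day 3 libraries were not used for that choice. Per the study's methods, however, day 3 worms were taken from the populations already sampled at day 1, so they are not an independent check. On E.V. at day 3, *asm-3* had 287 and 241 reads in controls, 17 and 29 in *set-26(-)* mutants and 26 and 35 in *hcf-1(-)* mutants. Controls and mutants did not overlap. By the quasi-likelihood test of edgeR, with p-values adjusted over all genes tested by the Benjamini-Hochberg method, *asm-3* was 14.6-fold lower in *set-26(-)* mutants (log2 fold change −3.86, standard error 0.28, adjusted p = 3.34e-08) and 12.3-fold lower in *hcf-1(-)* mutants (−3.62, standard error 0.27, adjusted p = 6.18e-08). Worms on the plates labelled *hda-1* RNAi at day 3 gave 327 and 375 reads in controls, 33 and 46 in *set-26(-)* mutants and 71 and 59 in *hcf-1(-)* mutants. There the difference was 9.35-fold for *set-26(-)* (log2 fold change −3.23, standard error 0.25, adjusted p = 5.88e-06) and 6.85-fold for *hcf-1(-)* (−2.78, standard error 0.24, adjusted p = 2.41e-05). All 4 of these calls held in every alternative fit that was run, including those that left out 1 library.

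**Figure D1:**
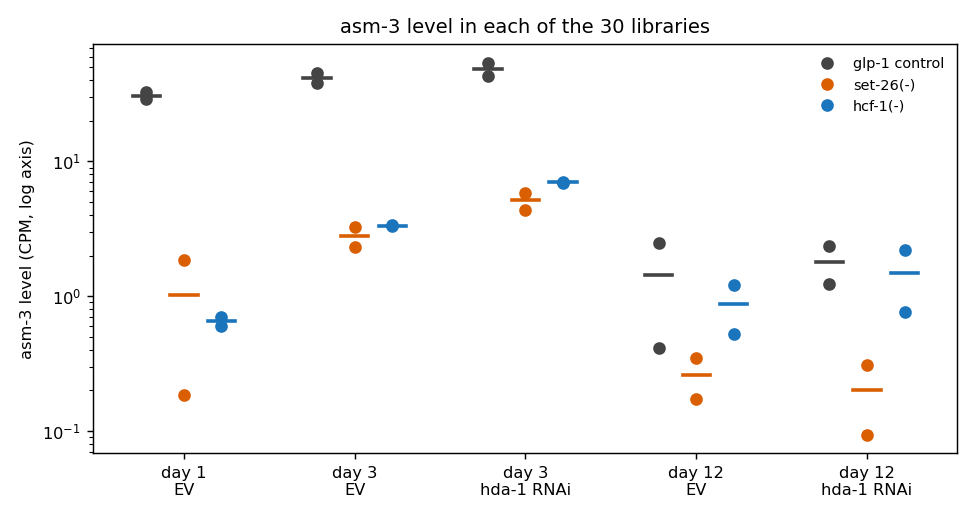
Level of *asm-3* in each of the 30 libraries (CPM, log axis), by day and diet. Points are libraries, bars are group means, and colours mark the genotype. The control libraries of days 1 and 3 lie between 28.8 and 54.1 CPM and the mutant libraries of those days lie between 0.184 and 7.05 CPM, and the day 12 libraries lie between 0.0935 and 2.48 CPM, with those of *set-26(-)* mutants lowest.

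By day 12 little *asm-3* RNA was left in any genotype. On E.V. the controls had 25 and 3 reads, *set-26(-)* mutants 4 and 2, and *hcf-1(-)* mutants 23 and 6. The log2 difference from controls was −2.50 for *set-26(-)* (standard error 0.95, edgeR adjusted p = 0.18) and −0.74 for *hcf-1(-)* (standard error 0.77, adjusted p = 0.623), and neither passed the test. In libraries labelled *hda-1* RNAi, *asm-3* had 24 and 11 reads in controls, 3 and 1 in *set-26(-)* mutants and 20 and 18 in *hcf-1(-)* mutants. The *set-26(-)* libraries lay below the controls (log2 fold change −3.12, standard error 0.90, edgeR adjusted p = 0.0916), without passing the test, and the *hcf-1(-)* libraries overlapped the controls in CPM (log2 fold change −0.36, adjusted p = 0.821). Without the filter on low counts the *set-26(-)* differences passed on E.V. (*asm-3* at −2.46, edgeR adjusted p = 0.0363) and under *hda-1* RNAi (−3.12, adjusted p = 0.00474), and the latter passed with the replicate block (−3.13, adjusted p = 0.0178). These fits called more of all genes as well. Without the filter 1536 were called on E.V. in place of 636. Under *hda-1* RNAi 1413 were called without the filter and 1976 with the block, in place of 463. A few reads per library set the precision at this age.

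Ordered by group mean, *asm-3* was highest in controls at day 3, with 48.6 CPM ± 7.84 (SD, n = 2) under *hda-1* RNAi and 41.6 ± 5.22 on E.V., and these groups overlapped. Controls at day 1 followed with 30.7 ± 2.6 CPM. Next came the mutants at day 3: *hcf-1(-)* under *hda-1* RNAi with 7.01 ± 0.062 CPM, *set-26(-)* under *hda-1* RNAi with 5.13 ± 1.05, *hcf-1(-)* on E.V. with 3.34 ± 0.0685 and *set-26(-)* on E.V. with 2.79 ± 0.681. From the second of these groups to the last, no neighbours overlapped. Below them, 6 groups from 1.79 CPM (day 12 controls under *hda-1* RNAi) down to 0.651 CPM (day 1 *hcf-1(-)* mutants) each overlapped the next. The lowest 2 groups were the *set-26(-)* mutants at day 12, with 0.261 ± 0.124 CPM on E.V. and 0.201 ± 0.152 under *hda-1* RNAi. The means spanned 242-fold, a spread that was 12.0-fold for *asm-1*, 6.31-fold for *sptl-1*, 5.64-fold for *asm-2*, 4.63-fold for *lagr-1*, 4.14-fold for *hyl-1*, 3.38-fold for *cgt-3*, 2.21-fold for *hyl-2* and 1.59-fold for *sms-1*.

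The other sphingomyelinase genes spanned a smaller range. *asm-2* (WBGene00000212, chrX:11321079-11324251, minus strand) stood at 27.3 and 24.7 CPM in day 1 controls, 12.9 and 16.7 in *set-26(-)* mutants and 17.3 and 13.3 in *hcf-1(-)* mutants, with both controls above every mutant library. The day 1 differences of −0.81 and −0.73 on the log2 scale did not pass the test (edgeR adjusted p = 0.0997 and 0.106). At day 3 on E.V. it stood at 41.5 and 39.4 CPM in controls, 17.9 and 16.8 in *set-26(-)* mutants and 23.5 and 20.8 in *hcf-1(-)* mutants. Here *asm-2* was 2.31-fold lower in *set-26(-)* (log2 fold change −1.21, standard error 0.20, edgeR adjusted p = 0.000466) and 1.82-fold lower in *hcf-1(-)* (−0.86, standard error 0.20, adjusted p = 0.00674). On plates labelled *hda-1* RNAi the day 3 differences were close in size, −1.10 (standard error 0.19, adjusted p = 0.00323) and −0.87 (standard error 0.19, adjusted p = 0.0121). The *hcf-1(-)* call was lost on E.V. without control replicate 1 (adjusted p = 0.0593) and under *hda-1* RNAi without control replicate 1 (0.056), control replicate 2 (0.1) or *hcf-1(-)* replicate 1 (0.0691). At day 12 *asm-2* had 146 and 34 reads in controls on E.V., 87 and 102 in *set-26(-)* mutants and 218 and 114 in *hcf-1(-)* mutants, and the groups overlapped.

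*asm-1* (WBGene00000211, chrII:6910072-6912659, plus strand, overlapping *cyn-10* on the other strand) behaved otherwise. Day 1 controls had 85 and 21 reads, *set-26(-)* mutants 11 and 20 and *hcf-1(-)* mutants 19 and 23. The control replicates differed from each other by more than the lower one differed from the mutants, and the log2 differences of −1.98 and −1.87 did not pass the test (edgeR adjusted p = 0.103 and 0.0928). They passed without the lower control library, replicate 2 (−2.67 and −2.56, adjusted p = 0.00726 and 0.00713). Without the higher one, replicate 1, they were −0.62 and −0.50 (adjusted p = 0.614 and 0.649). At day 3 on E.V. the controls stood at 30.5 and 30.9 CPM, *set-26(-)* mutants at 27.9 and 24.8 and *hcf-1(-)* mutants at 23.5 and 23.6, with log2 differences of −0.20 and −0.38 that did not pass the test.

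Of the synthesis genes, *sptl-1*, whose product makes part of the enzyme for the first step, moved against the rest in *set-26(-)* mutants. *sptl-1* (WBGene00016020) lies at chrII:51652-57570 on the plus strand, with *tre-5* on the other strand. At day 3 on E.V. it stood at 86.4 and 90.8 CPM in controls, 194 and 216 in *set-26(-)* mutants and 85.4 and 154 in *hcf-1(-)* mutants. The *set-26(-)* libraries lay above all others, while the *hcf-1(-)* replicates lay far apart and overlapped the controls. *sptl-1* was 2.34-fold higher in *set-26(-)* mutants (log2 fold change 1.23, standard error 0.22, edgeR adjusted p = 0.000863), and its difference in *hcf-1(-)* mutants was 0.44 (standard error 0.22, adjusted p = 0.216). A direct test between the mutants at day 3 gave *sptl-1* 1.73-fold lower in *hcf-1(-)* than in *set-26(-)* (log2 fold change −0.79, standard error 0.22, adjusted p = 0.0367). That call was lost when any 1 of 5 libraries was left out, with the largest change without *hcf-1(-)* replicate 1 (log2 fold change −0.42, adjusted p = 0.291). Without the same library *sptl-1* was higher in *hcf-1(-)* mutants than in controls (0.80, adjusted p = 0.00501). At day 1 *sptl-1* stood at 62.9 and 103 CPM in controls, 109 and 125 in *set-26(-)* mutants and 57.1 and 103 in *hcf-1(-)* mutants, and no difference passed the test.

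The ceramide synthase gene *hyl-1* had the largest called difference of the members tested at day 1. HYL-1 makes ceramides with longer fatty acids than HYL-2 does. *hyl-1* (WBGene00002043, chrIV:8539123-8544412, plus strand) stood at 128 and 191 CPM in day 1 controls, 56.7 and 55.0 in *set-26(-)* mutants and 40.5 and 61.7 in *hcf-1(-)* mutants. Controls lay above every mutant library, and the mutants overlapped each other. *hyl-1* was 2.84-fold lower in *set-26(-)* (log2 fold change −1.51, standard error 0.29, edgeR adjusted p = 0.0192) and 3.02-fold lower in *hcf-1(-)* (−1.60, standard error 0.29, adjusted p = 0.0114). The first call was lost without *set-26(-)* replicate 1 (adjusted p = 0.124) or 2 (0.0697), and the second without *hcf-1(-)* replicate 1 (0.108). By day 3 on E.V. the levels were 89.4 and 101 CPM in controls, 60.3 and 62.9 in *set-26(-)* mutants and 93.3 and 77.6 in *hcf-1(-)* mutants. Only the *set-26(-)* difference passed the test there (log2 fold change −0.61, standard error 0.18, adjusted p = 0.0276), and it was lost without either control (0.0623 and 0.167) or either *set-26(-)* library (0.187 and 0.125). The difference between the mutants did not pass (0.46, standard error 0.18, adjusted p = 0.154). In libraries labelled *hda-1* RNAi at day 3 the *set-26(-)* mutants stood above the controls instead, at 104 and 114 CPM against 74.5 and 85.0, without passing the test (log2 fold change 0.46, adjusted p = 0.136).

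The remaining ceramide synthase genes did not pass the test in any comparison of mutants with controls. *hyl-2* (WBGene00002044, chrX:4696754-4699461, minus strand), which is needed for survival of oxygen deprivation, was lower in every mutant library than in every control library at days 1 and 3 on E.V. At day 3 it stood at 103 and 116 CPM in controls, 77.3 and 71.9 in *set-26(-)* mutants and 87.9 and 72.9 in *hcf-1(-)* mutants (log2 differences −0.54 and −0.44, edgeR adjusted p = 0.0522 and 0.115). *lagr-1* (WBGene00006505, chrI:13724577-13732046, minus strand) had 2 to 43 reads in each of the 30 libraries, and it was too low to be tested at day 3. Its day 1 controls had 15 and 11 reads, against 6 and 8 in *set-26(-)* mutants and 6 and 19 in *hcf-1(-)* mutants.

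Of the genes that add head groups, *cgt-3*, which encodes the main glucosylceramide synthase, was lower in both mutants at day 1. *cgt-3* (WBGene00019127, chrII:5911324-5916910, plus strand) stood at 118 and 140 CPM in controls, 76.4 and 62.0 in *set-26(-)* mutants and 77.3 and 65.6 in *hcf-1(-)* mutants. Controls and mutants did not overlap. It was 1.86-fold lower in *set-26(-)* (log2 fold change −0.89, standard error 0.22, edgeR adjusted p = 0.0464) and 1.76-fold lower in *hcf-1(-)* (−0.81, standard error 0.22, adjusted p = 0.0472). These calls lay close to the threshold: the first was lost without any 1 of the 6 libraries (adjusted p = 0.0679 to 0.134), and the second without either control or either *hcf-1(-)* library (0.066 to 0.257). At day 3 the difference was −0.19 and −0.27 and did not pass. *sms-1* (WBGene00004892, chrIV:11482662-11498174, minus strand), which makes sphingomyelin, was the steadiest of the 9 genes. Its group means ran from 35.8 to 56.9 CPM, every group overlapped its neighbour in that order, and it passed the test in no comparison.

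**Figure D2:**
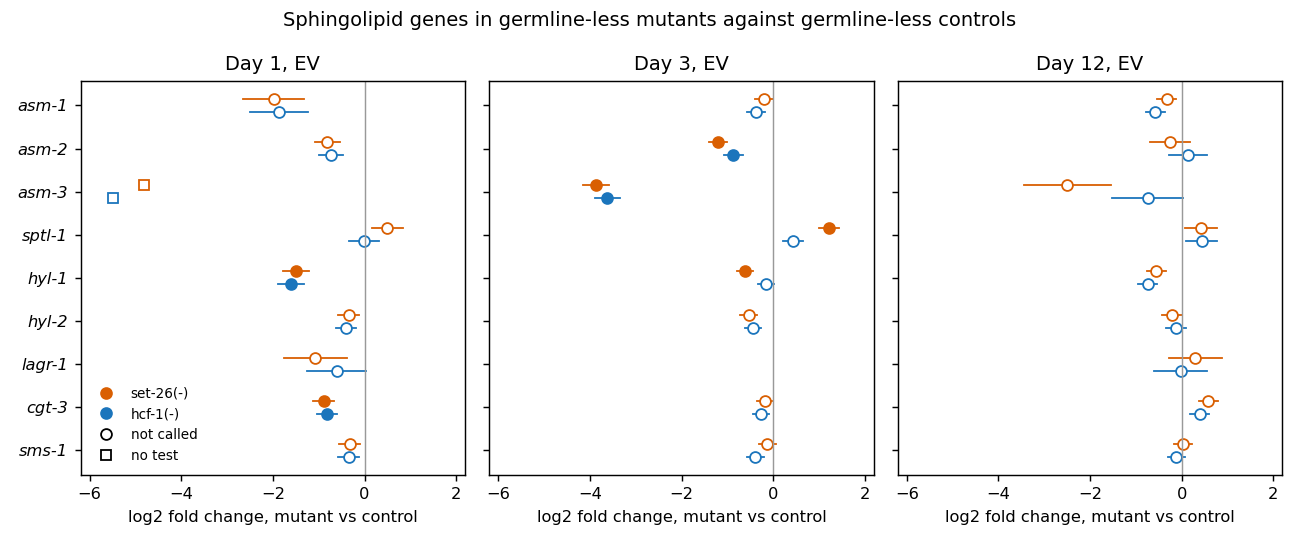
Log2 fold change of each of the 9 genes in each mutant against the controls on E.V., at days 1, 3 and 12. Lines are standard errors, filled points passed the test at an adjusted p of 0.05, open points did not, and squares are the day 1 values of *asm-3*, which carry no test. The points of *asm-3* lie far left of the others at days 1 and 3, and no point is filled at day 12.

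Counted together, 2 of the 8 members tested at day 1 (*hyl-1* and *cgt-3*) were lower in *set-26(-)* mutants and the same 2 in *hcf-1(-)* mutants, none was higher, and *asm-3* was left out of the count. Over all genes tested 8.64% and 13.6% were called, 4.19% and 5.84% as lower. The median log2 difference of the 8 was −0.85 and −0.67, and that of all genes tested was 0.03 and 0.04. At day 3 on E.V., 4 of 8 members were called in *set-26(-)* mutants (*asm-2*, *asm-3* and *hyl-1* lower, *sptl-1* higher) and 2 of 8 in *hcf-1(-)* mutants (*asm-2* and *asm-3* lower), beside 14.2% and 14.1% of all genes. Of all genes, 8.17% were higher and 6.04% lower in *set-26(-)* mutants, and 7.29% were lower in *hcf-1(-)* mutants. The medians were −0.37 and −0.38, against 0.02 and 0.05 for all genes. In libraries labelled *hda-1* RNAi at day 3, *asm-2* and *asm-3* were called in each mutant, 2 of 8, both lower, beside 9.43% and 11.3% of all genes, with 3.68% and 5.54% lower. These day 3 counts and medians include *asm-3*, which had been chosen as low in both mutants at day 1. Besides it, only *asm-2* was called in *hcf-1(-)* mutants on E.V. and in each mutant under *hda-1* RNAi. Both mutants were compared with the same control libraries, so their results are not independent.

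At day 12 none of the 9 members was called in either mutant on E.V., where 4.67% and 5.81% of all genes were, and none in libraries labelled *hda-1* RNAi, where 3.25% and 4.31% were. On E.V., 3 members had an unadjusted edgeR p under 0.05 in *set-26(-)* mutants (*asm-3*, *hyl-1* and *cgt-3*) and 2 in *hcf-1(-)* mutants (*asm-1* and *hyl-1*), and DESeq2 called 1, *hyl-1* in *hcf-1(-)* mutants (adjusted p = 0.0396). The share of all genes at that unadjusted cutoff was not counted. Of all genes, DESeq2 called 972 in *set-26(-)* and 1139 in *hcf-1(-)* mutants, where edgeR called 636 and 790. Under *hda-1* RNAi 2 had such a p in *set-26(-)* mutants (*asm-3* and *cgt-3*) and 0 in *hcf-1(-)* mutants, and DESeq2 called 0. The level of *cgt-3* on E.V. was 68.0 and 53.3 CPM in controls, 92.8 and 91.0 in *set-26(-)* mutants and 82.1 and 78.6 in *hcf-1(-)* mutants. Both mutants lay above the controls, by 0.58 (adjusted p = 0.144) and 0.39 (adjusted p = 0.292) on the log2 scale. Without control replicate 1, 4 differences passed on E.V.: *sptl-1* in both mutants (adjusted p = 0.0298 and 0.0258), *cgt-3* in *set-26(-)* (0.0469) and *hyl-1* in *hcf-1(-)* (0.026). The remaining control had 200 reads of *sptl-1*, and the one left out had 640. How many of all genes passed in that fit, with a single control library, was not counted. Without control replicate 2 none of the 4 passed: the *sptl-1* differences were −0.03 and −0.02 (adjusted p = 0.973 in both), that of *cgt-3* was 0.45 (0.288) and that of *hyl-1* was −0.59 (0.175).

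Compared directly on E.V., the mutants differed in *sptl-1* at day 3 and in no other member at any day. Of all genes, 1.03% differed between the mutants at day 1, 6.73% at day 3 (4.46% lower in *hcf-1(-)*) and 0.838% at day 12. For *asm-3* the difference of *hcf-1(-)* from *set-26(-)* was 0.24 at day 3 (standard error 0.32, edgeR adjusted p = 0.76) and 1.76 at day 12 (standard error 0.95, adjusted p = 0.627). At day 1 *asm-3* had 1 and 12 reads in *set-26(-)* mutants and 5 and 5 in *hcf-1(-)* mutants. The *sptl-1* libraries of the 2 mutants did not overlap at day 1, and the difference did not pass the test. An unadjusted edgeR p under 0.05 was found for 0 tested members at day 1, for *hyl-1* besides *sptl-1* at day 3 and for 0 members at day 12, and DESeq2 called 1 difference in the 3 comparisons. Of all genes, DESeq2 called 381, 755 and 256 at days 1, 3 and 12.

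The day 1 controls were not alike in every gene next to these. *elo-5*, which elongates the branched-chain fatty acids used for the long-chain base, had 5812 and 146 reads in the controls, 49 and 105 in *set-26(-)* mutants and 22 and 61 in *hcf-1(-)* mutants. The replicate with 5812 reads of *elo-5* was also the one with 85 reads of *asm-1*. For *asm-3* the control replicates were alike, at 149 and 171 reads, and for *hyl-1* replicate 1 was the lower one. Marker sums of other tissues at day 1 were 5329 to 12141 CPM for hypodermis (3 genes), 1932 to 3538 for intestine (5 genes) and 2597 to 5246 for muscle (3 genes). The germline sum was 55.2 to 55.8 CPM in day 1 *hcf-1(-)* mutants, 20.1 to 27.1 in *set-26(-)* mutants and 18.8 to 20.9 in controls, and none of its genes was at 0 throughout a day 1 group. Most of the *hcf-1(-)* sum was *syp-1*, at 32.6 to 35.2 CPM against 2.32 to 4.56 in controls. In those mutants *glh-1* and *rme-2* also lay above controls, *puf-5*, *cbd-1* and *him-3* lay below, and the rest overlapped. The hypodermis sum came mostly from *col-19*, since *dpy-7* and *rol-6* reached at most 17.3 and 72.8 CPM in any library, in *hcf-1(-)* mutants at day 1. The part of these differences in the members' results was not tested.

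Between day 1 and day 3 *asm-1* and *cgt-3* rose in both mutants and *sptl-1* rose in *set-26(-)* mutants. In *set-26(-)* mutants *asm-1* went from 11 and 20 reads to 206 and 220, a 10.2-fold rise (log2 fold change 3.35, standard error 0.31, edgeR adjusted p = 2.21e-05). In *hcf-1(-)* mutants it went from 19 and 23 reads to 185 and 243, an 8.57-fold rise (3.10, standard error 0.27, adjusted p = 0.000164). The groups lay far apart in each case. Controls went from 85 and 21 reads to 193 and 196, and with the day 1 replicates so unlike each other the log2 difference of 1.59 (standard error 0.58) did not pass (adjusted p = 0.152). It passed without day 1 replicate 1 (2.94, adjusted p = 2.68e-09) and without replicate 2 (0.89, adjusted p = 0.02). *cgt-3* rose 1.84-fold in *set-26(-)* mutants (log2 fold change 0.88, standard error 0.21, adjusted p = 0.00803) and 1.68-fold in *hcf-1(-)* mutants (0.75, standard error 0.18, adjusted p = 0.0181), and its difference in controls was 0.18. *sptl-1* rose 1.76-fold in *set-26(-)* mutants (0.82, standard error 0.20, adjusted p = 0.0105). The *cgt-3* and *sptl-1* calls in *set-26(-)* mutants were lost without either day 3 replicate (*cgt-3* 0.0832 and 0.0672, *sptl-1* 0.0656 and 0.142), and the *cgt-3* call in *hcf-1(-)* mutants without either day 1 library (0.0512 and 0.116) or day 3 replicate 1 (0.0521).

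In all, 0 of 8 members tested were called between days 1 and 3 in controls, 3 of 7 in *set-26(-)* mutants and 2 of 7 in *hcf-1(-)* mutants, all higher at day 3, and *asm-3* was left out. Among all genes 9.99%, 29.7% and 27.2% were called, and 16.6% and 14.4% were higher in *set-26(-)* and *hcf-1(-)* mutants. For the controls 3 members (*asm-1*, *asm-2* and *hyl-1*) had an unadjusted edgeR p under 0.05, and DESeq2 called 0. Of all genes, DESeq2 called 1386 in controls, and the share at the unadjusted cutoff was not counted. With the replicate number kept as a block 8 tests passed in place of 5, the added ones being in *hcf-1(-)* mutants: *hyl-1* (0.75, adjusted p = 0.0156), *sptl-1* (0.57, adjusted p = 0.00582) and *asm-2* (0.54, adjusted p = 0.0463). With the block 6.79%, 33.9% and 37.9% of all genes were called. Whether the rise differed between genotypes was tested on the 12 libraries of both days, a test added after the data were seen. No member passed it, with *asm-1* at 1.75 for *set-26(-)* (adjusted p = 0.249) and 1.45 for *hcf-1(-)* (adjusted p = 0.366), and *hyl-1* at 1.41 for *hcf-1(-)* (adjusted p = 0.0994). Unadjusted p under 0.05 were found for *asm-1* and *hyl-1* in both mutants and for *cgt-3* in *set-26(-)* mutants, and DESeq2 was not run on this test. Of all genes, 0.543% and 0.603% passed. The reads of *asm-3*, given without a test, went from 149 and 171 to 287 and 241 in controls, from 1 and 12 to 17 and 29 in *set-26(-)* mutants and from 5 and 5 to 26 and 35 in *hcf-1(-)* mutants.

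**Figure D3:**
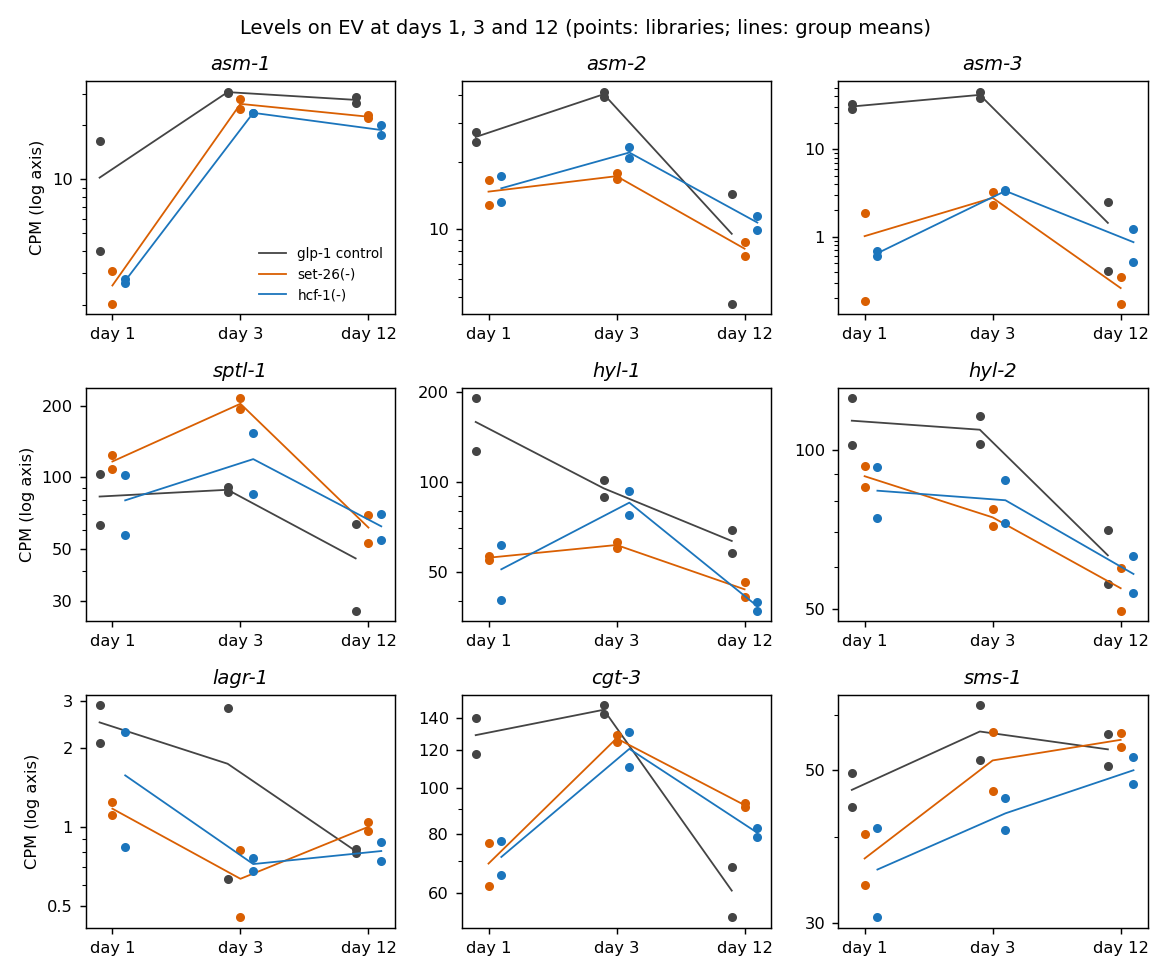
Levels of the 9 genes on E.V. at days 1, 3 and 12 (CPM, log axes that differ between panels). Points are libraries, lines join group means, and colours mark the genotype. *asm-2* and *asm-3* are lower at day 12 than at day 3 in each genotype, *asm-1* is higher at days 3 and 12 than in the day 1 mutants, and *sms-1* stays between 35.8 and 56.9 CPM as group means.

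From day 3 to day 12 on E.V. the members that changed all fell. *asm-3* fell 27.1-fold in controls, from 287 and 241 reads to 25 and 3 (log2 fold change −4.76, standard error 0.50, edgeR adjusted p = 0.000315). The size of that fall depended on the day 12 library: it was −6.56 without replicate 1 and −4.05 without replicate 2, and passed in both. In *set-26(-)* mutants it fell 10.4-fold, from 17 and 29 reads to 4 and 2 (−3.37, standard error 0.63, adjusted p = 0.000687), and in *hcf-1(-)* mutants 3.63-fold, from 26 and 35 reads to 23 and 6 (−1.86, standard error 0.52, adjusted p = 0.0277). The last call was lost without either day 3 library (0.0597 and 0.0698) or day 12 replicate 2 (−1.43, adjusted p = 0.215). *asm-2* fell 4.24-fold in controls (−2.08, standard error 0.42, adjusted p = 0.00724), 2.12-fold in *set-26(-)* mutants (−1.09, adjusted p = 0.00217) and 2.04-fold in *hcf-1(-)* mutants (−1.03, adjusted p = 0.00876). The control difference of *asm-2* was −3.07 without day 12 replicate 1 and −1.47 without replicate 2, and passed in both. That call was lost without either day 3 library (0.0916 and 0.0726), and the *hcf-1(-)* call without day 12 replicate 2 (0.0874). *asm-1*, the third sphingomyelinase gene, did not follow, with differences of −0.17, −0.24 and −0.32 that did not pass in any genotype.

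*sptl-1* fell 3.36-fold in *set-26(-)* mutants, from 194 and 216 CPM to 53.0 and 69.6 (log2 fold change −1.75, standard error 0.19, edgeR adjusted p = 4.25e-06), and 1.93-fold in *hcf-1(-)* mutants, from 85.4 and 154 CPM to 54.4 and 69.7 (−0.94, standard error 0.27, adjusted p = 0.0299). The second call was lost without day 3 replicate 2 (−0.46, adjusted p = 0.262) or day 12 replicate 1 (0.217). In controls *sptl-1* went from 86.4 and 90.8 CPM to 63.5 and 27.3, a difference of −0.99 that did not pass (adjusted p = 0.0657) but did with the replicate block (−1.10, adjusted p = 0.0109) and without day 12 replicate 1 (−1.65, adjusted p = 4.03e-07). Without day 12 replicate 2 it was −0.47 and did not pass (adjusted p = 0.114). *hyl-1* fell 2.21-fold in *hcf-1(-)* mutants (−1.15, standard error 0.20, adjusted p = 0.00169) and 1.41-fold in *set-26(-)* mutants (−0.50, adjusted p = 0.0378). *cgt-3* fell 2.45-fold in controls (−1.29, standard error 0.24, adjusted p = 0.0043) and 1.39-fold in *set-26(-)* mutants (−0.47, adjusted p = 0.0438), while −0.58 in *hcf-1(-)* mutants did not pass (adjusted p = 0.0596) except with the block (0.0316). The 2 smaller *set-26(-)* calls were lost without either day 3 library (*hyl-1* 0.134 and 0.18, *cgt-3* 0.19 and 0.144) or day 12 replicate 2 (0.158 and 0.11), and for *cgt-3* also without day 12 replicate 1 (0.0796) and with the block (0.054). *hyl-2* fell 1.76-fold in controls (−0.82, adjusted p = 0.03), a call lost without either day 3 library (0.16 and 0.215). The *cgt-3* call in controls was lost the same way (0.0733 and 0.0719).

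The counts were 4 of 8 members lower in controls, 5 of 9 in *set-26(-)* mutants and 4 of 8 in *hcf-1(-)* mutants, and 0 higher. Beside them 28.6%, 34.4% and 17.4% of all genes were called, and 16.2%, 18.8% and 10.7% were lower. The median log2 difference of the members was −0.90, −0.47 and −0.76, against 0.04, 0.03 and 0.00 for all genes. Hypodermis marker sums on E.V. were 213 to 511 CPM at day 3 and 12.3 to 59.7 at day 12. Muscle markers were 980 to 1353 and 431 to 777, and intestine markers 1116 to 1590 and 620 to 1266. Neuron markers (4 genes) were 464 to 625 and 614 to 684. In controls the intestine sums overlapped, at 1116 to 1144 and 901 to 1266. There *ifb-2*, *elt-2* and *myo-3* were higher at day 12, *vha-6*, *ges-1*, *unc-54* and *mlc-2* were lower, and *act-5* overlapped. The part of these markers in the members' fall was not tested.

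The fall of *asm-3* was smaller in *hcf-1(-)* mutants than in controls by a direct test. The day 3 difference from controls is part of such a value, and the gene had been chosen as low in both mutants at day 1. In a fit of the 12 libraries of days 3 and 12 on E.V., the log2 change in *hcf-1(-)* mutants was 2.92 above that in controls (standard error 0.72, edgeR adjusted p = 0.0394), and in *set-26(-)* mutants it was 1.37 above (standard error 1.03, adjusted p = 0.592). One member of 9 thus passed for *hcf-1(-)* and 0 for *set-26(-)*, beside 3.19% (1.95% higher) and 3.2% of all genes. For *set-26(-)*, *cgt-3* alone had an unadjusted p under 0.05 (0.80, adjusted p = 0.122), and DESeq2 called no member. The *hcf-1(-)* call rested on few reads and was lost when any 1 of 8 libraries was left out, with adjusted p from 0.0552 to 0.391. For fits with 1 library left out, the share of all genes that passed was not counted. The values farthest from the full fit were 2.12 without *hcf-1(-)* day 12 replicate 1 and 4.81 without control day 12 replicate 1. Without that control library, 5 tests passed: *asm-3* in *hcf-1(-)*, *asm-2* in *set-26(-)* (2.04, adjusted p = 0.00228) and *hcf-1(-)* (2.11, adjusted p = 0.00122), and *cgt-3* in *set-26(-)* (0.99, adjusted p = 0.0262) and *hcf-1(-)* (0.89, adjusted p = 0.037). Without the other control library of day 12, replicate 2, no member passed: *asm-3* in *hcf-1(-)* was at 2.25 (adjusted p = 0.0613), *asm-2* at 0.41 and 0.47 (0.647 and 0.649) and *cgt-3* at 0.64 and 0.54 (0.242 and 0.431).

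**Figure D4:**
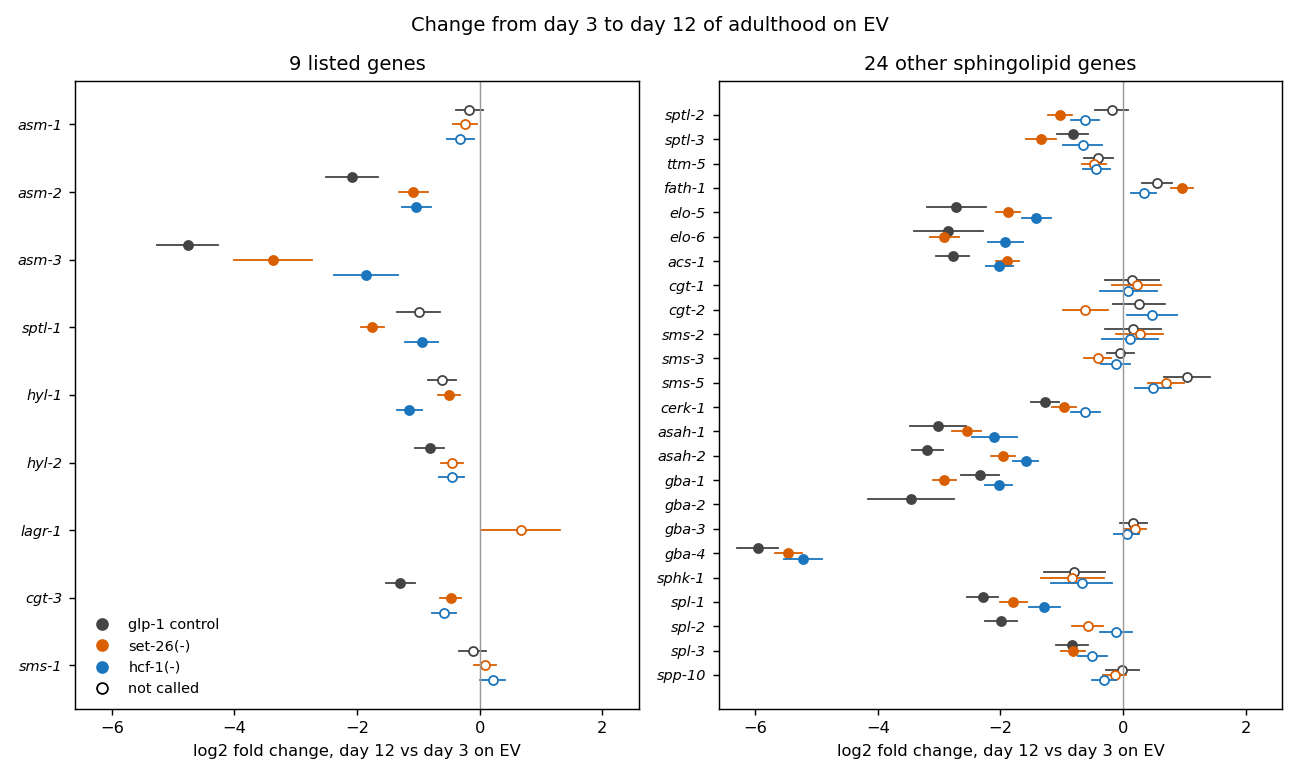
Log2 fold change from day 3 to day 12 on E.V. in each genotype, for the 9 genes (left) and for 24 other sphingolipid genes (right). Lines are standard errors, filled points passed the test and open points did not. Nearly every filled point lies left of 0, with *asm-3* at −4.76 in controls and *gba-4* at −5.96 in controls farthest from it, and the one filled point to the right is *fath-1* in *set-26(-)* mutants.

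Libraries labelled *hda-1* RNAi were compared with E.V. in each genotype, the comparison that asks which genes depend on the deacetylase after day 1. At day 3 no member passed in any genotype, where 0.0434%, 0.099% and 0.0159% of all genes did. An unadjusted edgeR p under 0.05 was found for 0 members in controls, 2 in *set-26(-)* mutants (*hyl-1* and *asm-3*) and 1 in *hcf-1(-)* mutants (*asm-3*), and DESeq2 called 1, *hyl-1* in *set-26(-)* mutants (adjusted p = 0.0228). Of all genes, DESeq2 called 19 in *set-26(-)* mutants. *hyl-1* stood at 60.3 and 62.9 CPM on E.V. and 104 and 114 under *hda-1* RNAi in *set-26(-)* mutants (log2 fold change 0.83, standard error 0.18, edgeR adjusted p = 0.0999), and at 89.4 and 101 against 74.5 and 85.0 in controls. The diets did not overlap in *set-26(-)* mutants. With the replicate number kept as a block, *hyl-1* in *set-26(-)* mutants (0.83, adjusted p = 0.00208) and *sptl-1* in *hcf-1(-)* mutants (−0.71, adjusted p = 0.00332) passed, where 0.902%, 0.585% and 1.15% of all genes did. *asm-3* was 17 and 29 reads on E.V. and 33 and 46 under *hda-1* RNAi in *set-26(-)* mutants (0.87, standard error 0.41, adjusted p = 0.995). In *hcf-1(-)* mutants it was 26 and 35 against 71 and 59 (1.06, standard error 0.33, adjusted p = 1).

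At day 12, 1 of 9 members was called in *hcf-1(-)* mutants and none in controls (of 9) or *set-26(-)* mutants (of 8), beside 5.38% (1.26% lower), 0.988% and 1.21% of all genes. *cgt-3* stood at 82.1 and 78.6 CPM on E.V. and 38.5 and 47.9 under *hda-1* RNAi in *hcf-1(-)* mutants, 1.80-fold lower (log2 fold change −0.85, standard error 0.18, edgeR adjusted p = 0.0307). The diets did not overlap, and the call was lost without replicate 1 on either diet (0.119 on E.V., 0.118 under *hda-1* RNAi). In controls and *set-26(-)* mutants the *cgt-3* differences were −0.43 and −0.46 and did not pass. One member had an unadjusted p under 0.05 in controls, *lagr-1*, with 8 and 6 reads on E.V. and 24 and 19 under *hda-1* RNAi (1.48, standard error 0.51, adjusted p = 0.31). In *set-26(-)* mutants there were 2, *hyl-1* and *sptl-1*, and DESeq2 called *hyl-1* there (adjusted p = 0.0215). Of all genes, DESeq2 called 470 there.

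With the replicate block the day 12 comparison gave 5 calls in place of 1, and 13%, 16.6% and 21.9% of all genes. *hyl-1* was higher under *hda-1* RNAi in *set-26(-)* mutants, 46.2 and 41.3 CPM on E.V. against 88.1 and 82.0 (log2 fold change 0.99, adjusted p = 0.000215 with the block and 0.0687 without). In *hcf-1(-)* mutants it stood at 39.7 and 37.2 CPM against 68.8 and 48.4 (0.63, adjusted p = 0.000169 with the block and 0.13 without). The diets did not overlap in either mutant, and in controls 58.1 and 69.0 CPM stood against 88.9 and 71.0 (0.35, adjusted p = 0.664 without the block). *sptl-1* was lower under *hda-1* RNAi, at 53.0 and 69.6 CPM on E.V. against 25.3 and 39.6 in *set-26(-)* mutants (−0.90, adjusted p = 0.000839 with the block and 0.177 without). In *hcf-1(-)* mutants it stood at 54.4 and 69.7 CPM against 31.0 and 43.8 (−0.69, adjusted p = 2.62e-05 with the block and 0.126 without). Whether the diet difference was larger in a mutant than in controls was tested on the 12 libraries of day 12, and no member passed for either mutant, nor did any other gene (0%). With the replicate block 183 and 80 genes passed (1.23% and 0.539%), with DESeq2 22 and 15 and without the filter 167 and 85, with no member among them. For *hyl-1* in *set-26(-)* mutants the difference of differences was 0.64 (standard error 0.31, edgeR adjusted p = 0.887). No member had an unadjusted p under 0.05 in this test for either mutant, and DESeq2 called 0. The same test at day 3, added after the data were seen, gave *hyl-1* in *set-26(-)* mutants a value of 1.09 (standard error 0.24, adjusted p = 1), and again no gene passed (0%).

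**Figure D5:**
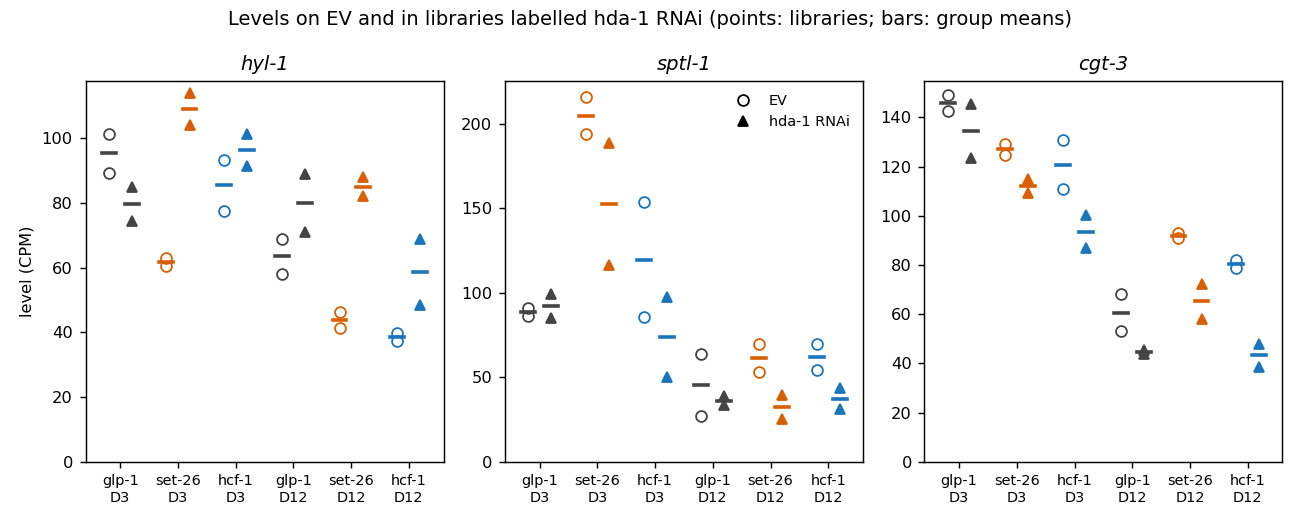
Levels of *hyl-1*, *sptl-1* and *cgt-3* on E.V. (open circles) and in libraries labelled *hda-1* RNAi (filled triangles) at days 3 and 12 (CPM, axes from 0). Points are libraries and bars are group means. In *set-26(-)* mutants the *hyl-1* libraries under *hda-1* RNAi lie above those on E.V. at both days, and in *hcf-1(-)* mutants at day 12 the *cgt-3* libraries under *hda-1* RNAi, 38.5 and 47.9 CPM, lie below those on E.V., 82.1 and 78.6 CPM.

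The rest of the pathway was counted in a list of 24 other genes of synthesis, precursor supply, head groups and breakdown. At day 1, 1 was higher and 5 lower in *set-26(-)* mutants, and 1 higher and 7 lower in *hcf-1(-)* mutants, with medians of −0.38 and −0.52, beside 8.64% and 13.6% of all genes called, 4.19% and 5.84% as lower, and medians of 0.03 and 0.04. *gba-4*, which encodes a glucosylceramidase, had 2517 and 2291 reads in controls, 420 and 940 in *set-26(-)* mutants and 1094 and 1443 in *hcf-1(-)* mutants (log2 fold change −2.05 and −1.46, edgeR adjusted p = 0.007 and 0.0178). The acid ceramidase genes *asah-2* (−1.56 and −1.18, adjusted p = 0.0165 and 0.0311) and *asah-1* (−1.06 and −0.85, adjusted p = 0.0281 and 0.043) were lower as well. So was *fath-1*, which encodes a fatty acid hydroxylase for sphingolipids (−1.51 and −1.20, adjusted p = 0.00907 and 0.0156). The gene that was higher in both was *sms-5*, a relative of *sms-1*, with 10 and 20 reads in controls, 48 and 65 in *set-26(-)* mutants and 58 and 88 in *hcf-1(-)* mutants (1.72 and 1.74, adjusted p = 0.0424 and 0.0312). Of 11 alternative fits the call of *sms-5* was lost in 6 for *set-26(-)* and 5 for *hcf-1(-)*, with adjusted p up to 0.164 and 0.166, and that of *asah-1* in 4 and 6, up to 0.171 and 0.257. *asah-2* was lost in 1 and 3 (up to 0.064 and 0.201), *fath-1* in 1 and 2 (up to 0.0718 and 0.134) and *gba-4* in 0 and 2 (up to 0.16).

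At day 3 on E.V., 4 of the 24 were higher and 4 lower in *set-26(-)* mutants, and 0 higher and 6 lower in *hcf-1(-)* mutants, beside 14.2% and 14.1% of all genes. Lower in both, and called in every alternative fit, were *asah-2* (log2 fold change −0.85 and −0.91, edgeR adjusted p = 0.00165 and 0.00103) and *gba-2*, a glucosylceramidase gene with 78 and 24 reads in controls, 9 and 7 in *set-26(-)* mutants and 7 and 8 in *hcf-1(-)* mutants (−2.98 and −3.25, adjusted p = 0.0019 and 0.00103). The partners of *sptl-1*, singled out after their values were seen, were higher with it in *set-26(-)* mutants: *sptl-2* had 112 and 168 reads in controls and 356 and 498 in *set-26(-)* mutants (1.26, adjusted p = 0.000801), and *sptl-3* had 247 and 197 against 381 and 542 (0.70, adjusted p = 0.0339). The *sptl-2* call held in all 11 alternative fits, and that of *sptl-3* was lost in 5 of them, with an adjusted p of up to 0.283. In libraries labelled *hda-1* RNAi at day 3, 1 was higher and 2 lower in *set-26(-)* mutants, and 0 higher and 8 lower in *hcf-1(-)* mutants, beside 9.43% and 11.3% of all genes. At day 12 on E.V. 1 of 23 tested was called, *spl-2*, a sphingosine phosphate lyase gene, in *hcf-1(-)* mutants (1.19, adjusted p = 0.0473), and under *hda-1* RNAi 1 of 23, *elo-6*, also in *hcf-1(-)* mutants (1.58, adjusted p = 0.0257), where 5.81% and 4.31% of all genes were called. Those calls were lost in 8 and 4 of 11 alternative fits (adjusted p up to 0.281 for *spl-2* and 0.192 for *elo-6*).

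With age nearly all calls in the list were falls. From day 3 to day 12 on E.V., 13 of 24 were lower in controls and 0 higher, 12 of 23 lower and 1 higher in *set-26(-)* mutants, and 8 of 23 lower and 0 higher in *hcf-1(-)* mutants, with medians of −0.83, −0.83 and −0.62. Of all genes, 28.6%, 34.4% and 17.4% were called, 16.2%, 18.8% and 10.7% as lower, with medians of 0.04, 0.03 and 0.00. *gba-4* went from 1195 and 1145 reads to 23 and 28 in controls (log2 fold change −5.96, edgeR adjusted p = 2.05e-05), from 1902 and 2209 to 67 and 66 in *set-26(-)* mutants (−5.46, adjusted p = 2.76e-10) and from 1056 and 1270 to 45 and 54 in *hcf-1(-)* mutants (−5.22, adjusted p = 6.86e-07). The single gene that rose was *fath-1* in *set-26(-)* mutants (0.95, adjusted p = 0.000731). Between diets none of the list was called at day 3, where 0.0434%, 0.099% and 0.0159% of all genes were. At day 12 *asah-2* (0.84, higher) and *elo-5* (−0.83, lower) were called among 23 tested in *hcf-1(-)* mutants, beside 5.38% of all genes (1.26% lower). Those calls were lost in 4 and 3 of 9 alternative fits. None of the list was called at day 12 in controls or *set-26(-)* mutants, beside 0.988% and 1.21% of all genes.

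The genes whose pattern was most like that of *asm-3* over the 15 group means were found by Pearson correlation of log2 CPM, over 9070 genes that averaged 50 reads or more in the 30 libraries. They were *ttr-46* (r = 0.978), *cyp-35A2* (0.967), *nuc-1* (0.948), Y69A2AL.2 (0.937) and *irg-3* (0.935). *ttr-46* is named for a transthyretin-like domain, *cyp-35A2* encodes a cytochrome P450, *nuc-1* encodes the lysosomal DNase II, and *irg-3* is named for its response to infection. *nuc-1* stood at 244 CPM in controls at day 3 on E.V., 58.3 in *set-26(-)* mutants and 53.3 in *hcf-1(-)* mutants, and at 49.2, 26.6 and 28.4 CPM at day 12. *cyp-35A2* stood at 216, 63.5 and 47.8 CPM at day 3 and at 33.8, 21.6 and 30.5 CPM at day 12. With a prior count of 0.5 in place of 2, 3 of the 5 genes were among the first 5 again, and with Spearman's rank correlation 1 was. Among the 9 members the pattern closest to *asm-3* was that of *asm-2* (r = 0.89), followed by *hyl-2* (0.79), and *asm-1* was unlike it (0.24). The 15 means share libraries, depth and scaling with every gene, so these coefficients are descriptions.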

How the data were processed

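Counts of reads per gene were deposited for each of the 30 libraries: per the study's methods and the submitters' processing notes, the authors trimmed reads with Trim Galore 0.6.5, aligned them to WBcel235 with STAR 2.7.9a, kept reads that mapped to 1 place and counted them by strand. The annotation release was not given in the sources used here. No pair of libraries held identical values.

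Groups were taken from the labels. Genes with more than 10 reads in at least 2 libraries of a fit were tested with edgeR 4.0.16 (TMM scaling, quasi-likelihood F test, Benjamini-Hochberg adjustment over all genes tested, threshold 0.05). Genotypes were compared among the 6 libraries of a day and diet, diets and ages among 4 libraries of a genotype, and differences of differences among 12 libraries, in 29 comparisons, and 4 more were added after the data were seen. Standard errors were computed as the log2 fold change divided by the square root of F. Calls and their directions, but not the standard errors, were checked on simulated data. CPM values in the text were scaled over all 30 libraries. Medians of a list are over its tested genes. Unadjusted p-values under 0.05 were counted for members only, so no share of all genes stands beside them. The p-values measure the spread between these libraries, which the study describes as biological replicates.

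Per the labels, worms were divided between diets at day 1 and collected at several ages. That libraries with the same replicate number shared a culture was not stated, and diet and age comparisons with the number as a block rest on it. Deviations of same-numbered libraries from their group means correlated at 0.16 to 0.43 between diets and 0.02 to 0.33 between ages. Alternatives were DESeq2 1.42.0, its size factors within edgeR, no filter, the replicate block, fits with more or fewer libraries and each library left out in turn.

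The genes, the list of 24 others and the rule for those named from it (called the same way in both mutants) were chosen with earlier results of these data known. Where a gene outside that rule is named, it was picked after its values were seen. The rule for patterns like *asm-3* used a mean of at least 50 reads and a prior count of 2.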

Additional observations from a re-analysis of the deposited data

Results flagged for a closer look

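Some log2 changes with age differed between a mutant and the controls by a direct test of the difference in edgeR. *asm-3* had been chosen as low in both mutants at day 1, and its day 3 difference from controls is part of its value. For *asm-3* between days 3 and 12 the change in *hcf-1(-)* mutants was 2.92 above that in controls (standard error 0.72, adjusted p = 0.0394), a call lost when any 1 of 8 libraries was left out (adjusted p = 0.0552 to 0.391).

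The acid ceramidase gene *asah-2* went from 1309 and 1185 reads to 250 and 139 in controls, from 816 and 927 to 365 and 273 in *set-26(-)* mutants and from 801 and 1107 to 711 and 359 in *hcf-1(-)* mutants. Its fall was smaller by 1.21 in *set-26(-)* (standard error 0.29, edgeR adjusted p = 0.036) and by 1.59 in *hcf-1(-)* (standard error 0.29, adjusted p = 0.00708). *asah-2* had been named as lower in both mutants at days 1 and 3, and the day 3 difference is part of these values. The *set-26(-)* call was lost when any 1 of 6 libraries was left out, with an adjusted p of up to 0.17, and the *hcf-1(-)* call was kept in every alternative fit, with an adjusted p of up to 0.0416.

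The sphingosine phosphate lyase gene *spl-2* went from 156 and 186 reads to 70 and 50 in controls, from 96 and 127 to 89 and 123 in *set-26(-)* mutants and from 128 and 189 to 358 and 145 in *hcf-1(-)* mutants. The difference from controls was 1.40 for *set-26(-)* (standard error 0.36, edgeR adjusted p = 0.0486) and 1.87 for *hcf-1(-)* (standard error 0.35, adjusted p = 0.00908). *spl-2* had been picked after its values were seen. Its called day 12 difference in *hcf-1(-)* mutants is part of the latter value. The *set-26(-)* call of *spl-2* was lost in 12 of 17 alternative fits (adjusted p up to 0.191) and the *hcf-1(-)* call in 1 (0.0505).

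The glucosylceramidase gene *gba-4* went from 2517 and 2291 reads at day 1 to 1195 and 1145 at day 3 in controls and from 420 and 940 to 1902 and 2209 in *set-26(-)* mutants, a difference of 2.51 (standard error 0.34, edgeR adjusted p = 0.00595). The test was added after the data were seen, and the gene had been named for its day 1 difference, which is part of this value. No alternative fit, with a library left out or otherwise, was run for this test.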

How the results depend on the processing

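Of 35 differences called among the 9 genes, 30 were kept under every alternative that used all libraries of the comparison and 14 also when any 1 library was left out, and 0 changed direction under any alternative. Of the 8 calls of *asm-3*, 6 were kept throughout.

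Summed over genotypes, the number of members called at day 1 was 4, and 3 with other libraries in the fit, and without filter 6. At day 3 it was 6 on E.V., and 7 under every alternative with all libraries other than that without filter. Under *hda-1* RNAi at day 3 it was 4, and 5 without filter and 6 with the replicate block. At day 12 it was 0 on E.V., and 1 with DESeq2 or without filter, and 0 under *hda-1* RNAi, and 1 without filter or with the block. Between the mutants it was 1, and 0 with other libraries. Between diets it was 0 at day 3, 1 with DESeq2 or without filter and 2 with the block, and 1 at day 12, 2 with DESeq2 or other libraries and 5 without filter or with the block. From day 1 to 3 it was 5, 7 without filter and 8 with the block, and from day 3 to 12 it was 13 and 10 to 14 under all alternatives. Counts of all genes moved between settings as well. For diets at day 12 they were 128, 161 and 756 in controls, *set-26(-)* and *hcf-1(-)* mutants. Without filter these were 848, 1125 and 1642, and with the block 1678, 2202 and 3074.

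When 1 library was left out, the counts ran from 1 to 4 (day 1), 4 to 8 (day 3, E.V.), 3 to 5 (day 3, *hda-1* RNAi), 0 to 4 (day 12, E.V.), 0 to 1 (between mutants), 0 to 2 and 0 to 1 (diets at days 3 and 12), 3 to 8 (day 1 to 3), 10 to 14 (day 3 to 12) and 0 to 5 (genotype by age). The count of 1 at day 1 was found without *hcf-1(-)* replicate 1, the 8 and the 3 between days 1 and 3 without day 1 control replicate 1 and without either day 3 *set-26(-)* library, and the 4 at day 12 and the 5 for genotype by age without day 12 control replicate 1. A left-out library leaves 1 sample in its group, which is assumed to vary like the others. All genes called in such fits were not counted. Mutants and controls share only a replicate number (correlation of deviations −0.03 to 0.30), and the block there changed the counts as given. Without a filter the median change of all genes from day 3 to 12 moved to 0.23, 0.18 and 0.10. The cause of these changes was not tested.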
